A study of Mus musculus with 7 samples.

Results

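The genes described here are 9 genes of the MHC class II pathway, chosen by name from the 23337 genes listed for each library: the classical chains H2-Aa, H2-Ab1 and H2-Eb1, the invariant chain Cd74, the peptide-loading chains H2-DMa, H2-DMb1, H2-DMb2 and H2-Oa, and the transcriptional co-activator Ciita. All 9 were present in the tables. All 9 also passed a filter that asked for a mean of at least 1 TPM over the 7 libraries (TPM being a transcript level divided by gene length, with every library summing to 1000000), H2-Oa only through its levels after LPS, since its untreated levels were all below 1 TPM.

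MHC class II molecules are surface proteins that show peptides from the endosome to CD4 T cells. The alpha chain H2-Aa pairs with the beta chain H2-Ab1 as I-A, and H2-Eb1 is the beta chain of I-E. The new dimer is held by the invariant chain Cd74, which is cut down in the endosome by proteases, and the last piece is exchanged for a peptide with the help of the DM dimer (H2-DMa with a DM beta chain). The DO dimer (H2-Oa with H2-Ob) inhibits DM. Ciita binds no DNA itself and is recruited by the RFX, CREB and NF-Y factors that sit on the X and Y boxes shared by class II promoters. Macrophages hold class II at moderate levels and raise it strongly with interferon gamma.

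RNA sequencing was done on bone marrow-derived macrophages, bone marrow cells grown into macrophages with M-CSF at 25 ng/ml for 7 days, from male wild-type (WT) or Tgm2 knockout (KO) mice aged 6 to 8 weeks. Tgm2 encodes transglutaminase 2, which crosslinks proteins. The groups were WT cells left untreated (WT M0, n = 2), KO cells left untreated (KO M0, n = 1), WT cells given the bacterial cell wall component lipopolysaccharide (LPS) at 10 ng/ml for 6 hours (WT LPS, n = 2) and KO cells given the same (KO LPS, n = 2), all of them in M-CSF. The labels name neither the strain, nor how the knockout was made, nor a batch, and whether replicates are separate animals or cultures is not said, and a p-value here reflects only how far these libraries scatter, which may be technical. The depth of the libraries is unknown, since it cannot be read from TPM. These are bulk samples: fewer cells that carry class II and less class II RNA per cell cannot be told apart.

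Tgm2 stood at 433 and 368 TPM (WT M0), 50.7 (KO M0), 233 and 199 (WT LPS) and 19.4 and 19.2 (KO LPS), and all 3 knockout libraries lay below all 4 wild-type ones. The WT LPS libraries stood apart in sex-linked genes although all libraries are labelled male. Xist, the X-inactivation RNA, was at 47.2 and 55.4 TPM there and at most 0.00535 TPM in the other 5 libraries, and 4 Y-linked genes (Uty, Kdm5d, Eif2s3y and Ddx3y) were at 0.437 to 0.525 of their KO LPS mean. Every comparison with WT LPS below carries this difference, and its part in the results was not tested. The comparisons of KO LPS with KO M0 and of KO M0 with WT M0 do not set those libraries against others.

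RefSeq (GRCm38.p6, the assembly mm10 is built on) places H2-Oa, H2-DMa, H2-DMb2, H2-DMb1, H2-Ab1, H2-Aa and H2-Eb1 on chromosome 17, from the start of H2-Oa at 34092379 to the end of H2-Eb1 at 34316674. H2-DMb1 and H2-DMb2 are close copies, and no source used here says how a read matching both was counted, so their separate levels are uncertain.

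The promoters of 5 class II genes, and of the DO partner H2-Ob, are shown because their shared letters are where the factors that recruit Ciita are known to bind. Each line runs 5′ to 3′ along the gene from 48 bases before the Y box core to 5 bases after it, and capitals mark the Y box core TGATTGG and, where found, the X box letters, which are AAC, then 3 bases of any kind, then TGATG.
H2-Aa (chr17:34287862-34287921, minus strand): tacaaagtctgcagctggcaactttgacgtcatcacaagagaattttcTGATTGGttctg
H2-Eb1 (chr17:34305758-34305817, plus strand): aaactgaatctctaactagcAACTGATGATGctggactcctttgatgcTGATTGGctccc
H2-DMb1 (chr17:34153080-34153139, plus strand): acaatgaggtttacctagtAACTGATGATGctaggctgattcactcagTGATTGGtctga
H2-DMb2 (chr17:34145109-34145168, plus strand): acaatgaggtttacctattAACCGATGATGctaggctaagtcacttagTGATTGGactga
H2-Oa (chr17:34092286-34092345, plus strand): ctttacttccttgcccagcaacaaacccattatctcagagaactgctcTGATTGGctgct
H2-Ob (chr17:34238798-34238857, plus strand): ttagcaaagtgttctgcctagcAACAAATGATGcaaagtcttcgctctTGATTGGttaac

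Both motifs were chosen after these sequences were read, and both strands of the 250 bases before each start were searched. The table held promoters for 6 of the 9 genes, with no entry for H2-Ab1, Cd74 or Ciita. TGATTGG was found in 5 of the 6, always on the gene's own strand and beginning 45 (H2-Oa), 50 (H2-Aa), 61 (H2-Eb1), 63 (H2-DMb1) and 92 (H2-DMb2) bases before the start. It was found in neither H2-DMa promoter. Of 27025 genes with a promoter in the table, 8.38% held TGATTGG. The X box letters were found in H2-Eb1, H2-DMb1 and H2-DMb2, and 0.574% of genes held it. The 2 motifs do not overlap: 17 bases lie between them in H2-Eb1 and one base more in each DM beta gene. A total of 14 genes of the 27025 held both, and 4 of the 14 were H2-Eb1, H2-DMb1, H2-DMb2 and H2-Ob. A match is a description of letters and not a measured binding site.

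Untreated macrophages held class II transcripts at high levels. Cd74 was at 5839 and 6593 TPM in WT M0 and 6299 in KO M0. H2-Aa was at 1858 and 1814 in WT M0 and 1710 in KO M0, and H2-Ab1 at 2038 and 1633 in WT M0 and 1471 in KO M0. H2-Eb1 was at 1004 and 912 in WT M0 and 867 in KO M0. All 9 genes are annotated as protein-coding, Ciita on chromosome 16 from 10480014 to 10531064 and Cd74 on chromosome 18 from 60803849 to 60812652. Together the 9 genes made up 1.11% and 1.13% of all TPM in WT M0 and 1.07% in KO M0.

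The loading chains and Ciita were far less abundant on the same per-length scale. H2-DMb1 was at 224 and 187 TPM in WT M0 and 174 in KO M0, and H2-DMa at 139 and 163 in WT M0 and 176 in KO M0. H2-DMb2 was at 11.2 and 7.04 in WT M0 and 5.25 in KO M0, and Ciita at 6.99 and 5.62 in WT M0 and 7.53 in KO M0. H2-Oa was at 0.268 TPM or listed at 0 in WT M0 and at 0.476 in KO M0. The order in untreated cells was therefore Cd74, then H2-Ab1 with H2-Aa, then H2-Eb1, then H2-DMb1 with H2-DMa, then H2-DMb2 with Ciita, and last H2-Oa. The joined pairs overlapped between genes over the 3 untreated libraries.

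**Figure D1:**
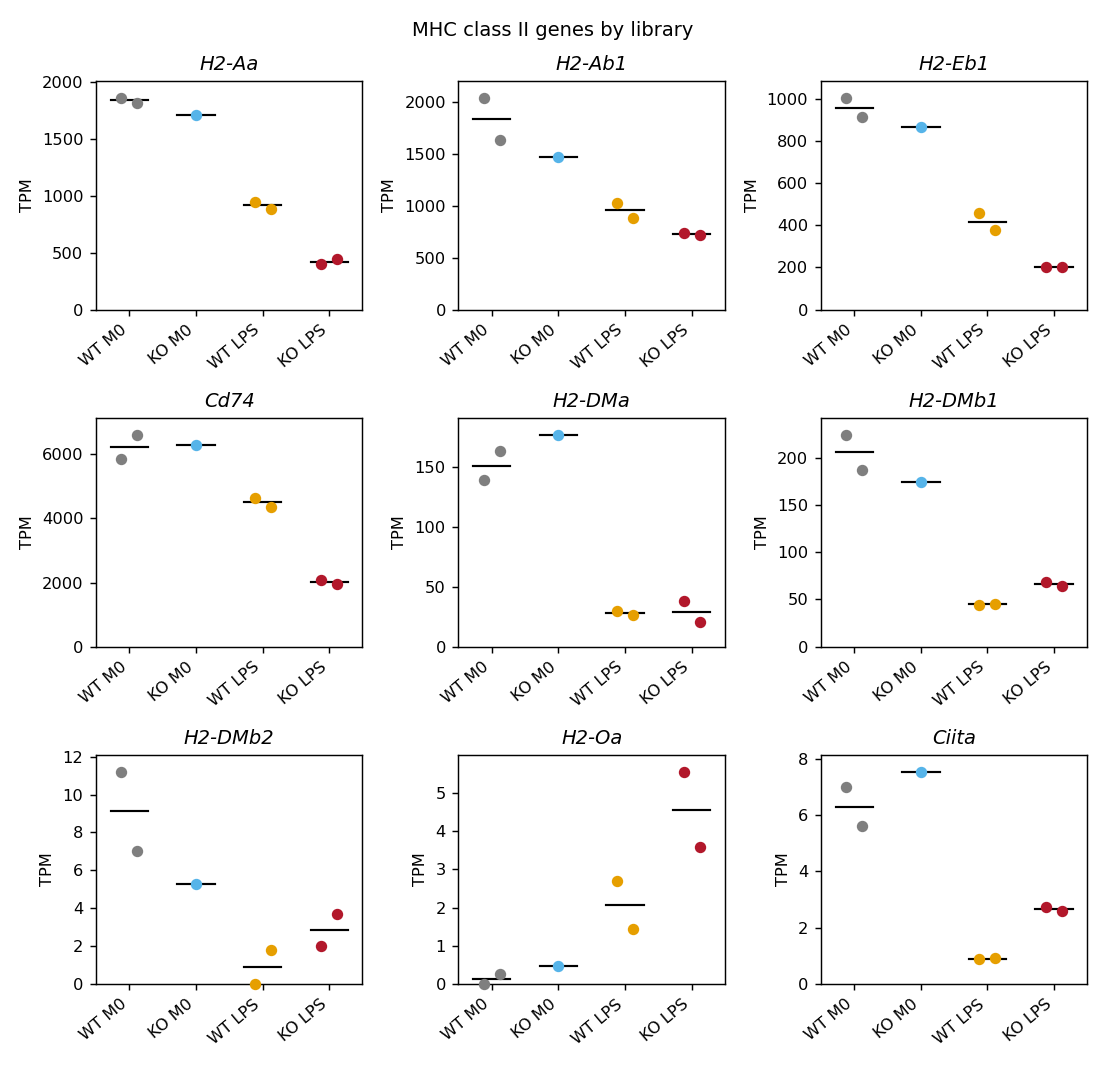
TPM (vertical axes, linear and starting at 0) of the 9 class II genes in the 7 libraries. Points are libraries, lines are group means; KO M0 has 1 library. H2-Aa, H2-Eb1 and Cd74 step down from untreated to WT LPS and again to KO LPS, while Ciita and H2-DMb1 are lowest in WT LPS.

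LPS lowered class II transcripts in wild-type cells, and the log2 fold changes of the DM genes and Ciita were larger than those of the classical chains. All 8 genes other than H2-Oa fell in WT LPS vs WT M0 (limma, Benjamini-Hochberg adjusted p under 0.05), where 29.6% of all 11096 genes tested fell and 15% rose, 44.6% in all. H2-Oa is left out of this count because it entered the test only through its LPS levels. The median log2 fold change of the 8 was -1.57, against -0.21 for all genes tested. All fold changes given as log2 are of TPM + 1, and so are too small for genes of low level.

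H2-DMb1 went to 44.5 and 45.0 TPM in WT LPS, which was -2.17 in log2 (SE 0.16, limma adjusted p 2.4e-06). H2-DMa went to 29.8 and 26.6 TPM (-2.37, SE 0.25, adjusted p 3.1e-05), 5.34-fold below its WT M0 mean. Ciita went to 0.883 and 0.905 TPM (-1.94, SE 0.21, adjusted p 3.8e-05), 7.06-fold below its WT M0 mean. All 3 genes had WT LPS libraries far below every untreated library. H2-DMb2 fell as well, to 1.81 TPM in 1 library and listed at 0 in the other (-2.56, SE 0.43, adjusted p 0.00079).

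The classical chains fell about 2-fold. H2-Aa was at 948 and 886 TPM in WT LPS (-1.001, SE 0.15, adjusted p 0.00033), H2-Ab1 at 1032 and 881 (-0.94, SE 0.17, adjusted p 0.0011) and H2-Eb1 at 459 and 376 (-1.20, SE 0.16, adjusted p 0.00014). No WT LPS library reached an untreated one for any of these chains. Relative to the median gene their falls were 0.79, 0.73 and 0.99 log2 units (values of -0.79, -0.73 and -0.99).

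Cd74 fell by less, to 4645 and 4351 TPM (-0.46, SE 0.16, adjusted p 0.035, or -0.26 relative to the median gene). That call was lost with median-ratio scaling of the libraries (-0.23, adjusted p 0.30), with quantile normalization (0.0708), with no filter on low values (0.13), and on leaving out the second WT M0 library (0.14), the first WT LPS library (0.12) or the second (0.18). H2-Oa was at 0.268 TPM or listed at 0 in WT M0 and at 2.68 and 1.44 TPM in WT LPS, a difference of 1.41 in log2, given as a description since the filter favoured it.

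In knockout cells LPS also lowered class II transcripts, H2-Aa and H2-Eb1 by about 2 log2 units. Of the 8 genes other than H2-Oa 7 fell and 0 rose in KO LPS vs KO M0, where 24.3% of all genes tested fell and 13.8% rose, 38.1% in all, and the median of the 8 was -1.51 against -0.24 for all genes tested. H2-Aa fell from 1710 to 401 and 443 TPM (-2.02, SE 0.18, adjusted p 1.3e-05) and H2-Eb1 from 867 to 201.4 and 201.5 TPM (-2.10, SE 0.19, adjusted p 1.6e-05). Cd74 fell from 6299 to 2068 and 1969 TPM (-1.64, SE 0.19, adjusted p 9.1e-05). These are 4.05-, 4.31- and 3.12-fold differences of mean TPM.

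H2-Ab1 fell from 1471 to 736 and 720 TPM (-1.01, SE 0.20, adjusted p 0.0030), a smaller step than that of its partner H2-Aa. H2-DMb1 fell by 1.37 (SE 0.19), to 68.8 and 64.5 TPM, and Ciita by 1.22 (SE 0.26), to 2.75 and 2.58 TPM. H2-DMa fell by 2.61 (SE 0.31), with KO LPS libraries at 38.2 and 20.5 TPM. H2-DMb2 did not pass (-0.74, SE 0.53, adjusted p 0.30), with KO LPS at 1.99 and 3.70 TPM. H2-Oa was at 5.54 and 3.59 TPM in KO LPS and 0.476 in KO M0, a difference of 1.89 in log2, again a description. The fit rests on the single KO M0 library, taken to scatter as the replicated groups do. Without both WT LPS libraries in the fit 7 genes were again called lower.

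**Figure D2:**
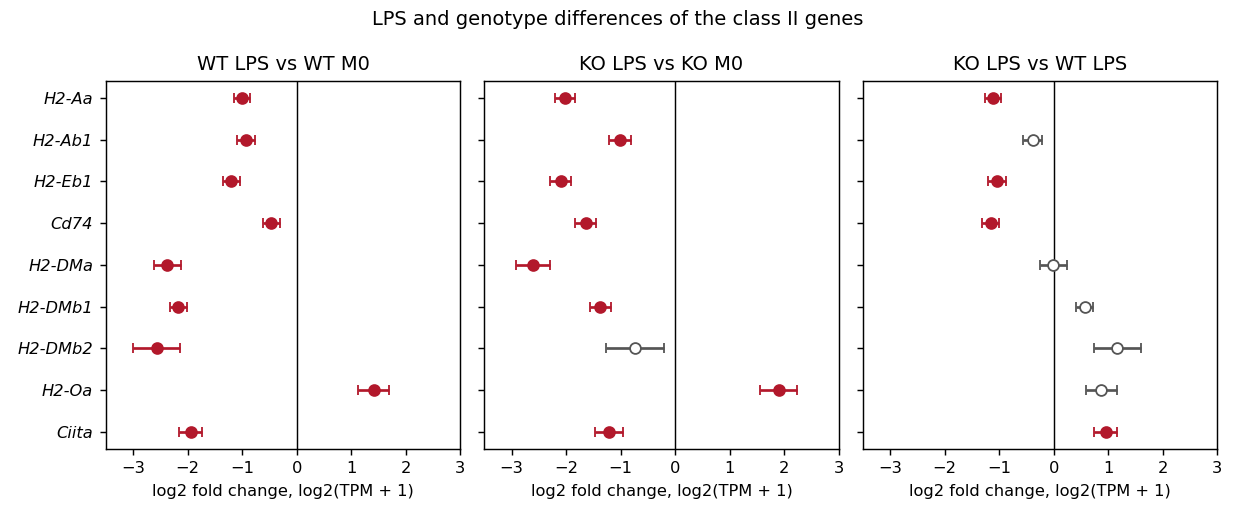
Log2 fold change on the log2(TPM + 1) scale (horizontal axes) of each class II gene with LPS in wild-type cells, with LPS in knockout cells, and between the genotypes under LPS. Points are limma estimates, bars are 1 SE either side, filled points passed an adjusted p of 0.05, which for H2-Oa with LPS the filter favoured. In the right-hand panel H2-Aa, H2-Eb1 and Cd74 lie near -1.1 and Ciita near 0.95.

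Under LPS the 9 genes parted between genotypes: H2-Aa, H2-Eb1 and Cd74 were lower in KO LPS than in WT LPS, and Ciita was higher. Of the 9 genes 3 were called lower, where 2.58% of all genes tested were called lower, and 1 was called higher, where 4.59% were, so 4 of 9 against 7.16% in all. The KO LPS and WT LPS libraries did not overlap for 8 of the 9, and 49.7% of all genes tested did not overlap. The median log2 fold change of the 9 was -0.01, against 0.03 for all genes tested. H2-Oa is among the 9, and among the 8 that did not overlap, though it passed the filter only through its KO LPS levels. Of the 8 genes other than H2-Oa, 3 were called lower and 1 higher, with a median of -0.20.

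Cd74, at 2068 and 1969 TPM against 4645 and 4351, was 2.23-fold lower by mean TPM (log2 fold change -1.16, SE 0.16, limma adjusted p 0.0015). H2-Aa had a mean of 422 ± 29.5 TPM with the knockout and LPS, against 917 ± 43.5 for WT LPS (SD, n = 2), 2.17-fold lower, and H2-Eb1 at 201 ± 0.0859 against 417 ± 58.6 (SD, n = 2), 2.07-fold lower. The calls of H2-Aa and H2-Eb1 were kept under all 15 alternatives, with adjusted p from 0.0010 to 0.028 and from 0.0025 to 0.042, and that of Cd74 was lost when low genes were not filtered (adjusted p 0.066).

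H2-Ab1 was lower by 0.39 log2 units, a value of -0.39 (SE 0.17, 95% interval -0.76 to -0.02), and did not pass (adjusted p 0.23). H2-DMa was at 38.2 and 20.5 TPM against 29.8 and 26.6, the 1 gene of the 9 whose libraries overlapped, with a log2 fold change of -0.01 and a 95% interval from -0.56 to 0.55.

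Ciita was at 2.75 and 2.58 TPM in KO LPS and 0.883 and 0.905 in WT LPS, 2.98-fold higher by mean TPM (log2 fold change 0.95, SE 0.21, adjusted p 0.022). The direction held without each library, but the call was lost on leaving out either WT LPS library (adjusted p 0.073 for the first and 0.085 for the second) or either KO LPS library (0.10 and 0.098), and when low genes were not filtered (0.075). Ciita has several promoters, and gene-level TPM do not show which was used.

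The loading chains H2-DMb1 and H2-DMb2 and the DO chain H2-Oa had higher means in KO LPS without passing the test. H2-DMb1 was at 68.8 and 64.5 TPM against 44.5 and 45.0 (0.56, SE 0.16, adjusted p 0.060), and it passed when the replicate number was added as a block and KO M0 was left out together (0.035). H2-DMb2 was at 1.99 and 3.70 TPM against 1.81 and a listed 0 (1.16, SE 0.43, adjusted p 0.16), a value that rests on single libraries: it was 1.91 (adjusted p 0.013) leaving out the WT LPS library at 1.81 TPM and 0.42 (adjusted p 0.62) leaving out the one listed at 0. H2-Oa was at 5.54 and 3.59 TPM against 2.68 and 1.44 (0.87, SE 0.28, adjusted p 0.11). This is given as a description, since H2-Oa passed the filter only through its KO LPS levels.

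Ratios within a library do not depend on how libraries were scaled, and they show how the mix of class II transcripts differed. The ratio of H2-Aa to its partner H2-Ab1 was 0.912 and 1.11 (WT M0), 1.16 (KO M0), 0.919 and 1.01 (WT LPS) and 0.545 and 0.615 (KO LPS). The ratio of H2-Eb1 to H2-Ab1 was 0.493 and 0.558 (WT M0), 0.590 (KO M0), 0.445 and 0.427 (WT LPS) and 0.273 and 0.280 (KO LPS). Both ratios were lower in the KO LPS libraries than in the other 5.

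Cd74 per summed classical chain transcript (H2-Aa, H2-Ab1 and H2-Eb1) was 1.19 and 1.51 (WT M0), 1.56 (KO M0), 1.91 and 2.03 (WT LPS) and 1.54 and 1.44 (KO LPS), highest in WT LPS. H2-DMa and H2-DMb1 together came to 7.39% and 8.03% of the summed classical TPM for WT M0, 8.66% (KO M0), 3.05% and 3.34% (WT LPS) and 7.99% and 6.24% (KO LPS). Wild-type cells with LPS thus held the least DM transcript per classical transcript, and KO LPS lay near the untreated range. With 2 libraries against 2, the smallest two-sided p that an exact permutation test can give is 0.333, and these 4 ratios gave that value between KO LPS and WT LPS, so none can pass.

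**Figure D3:**
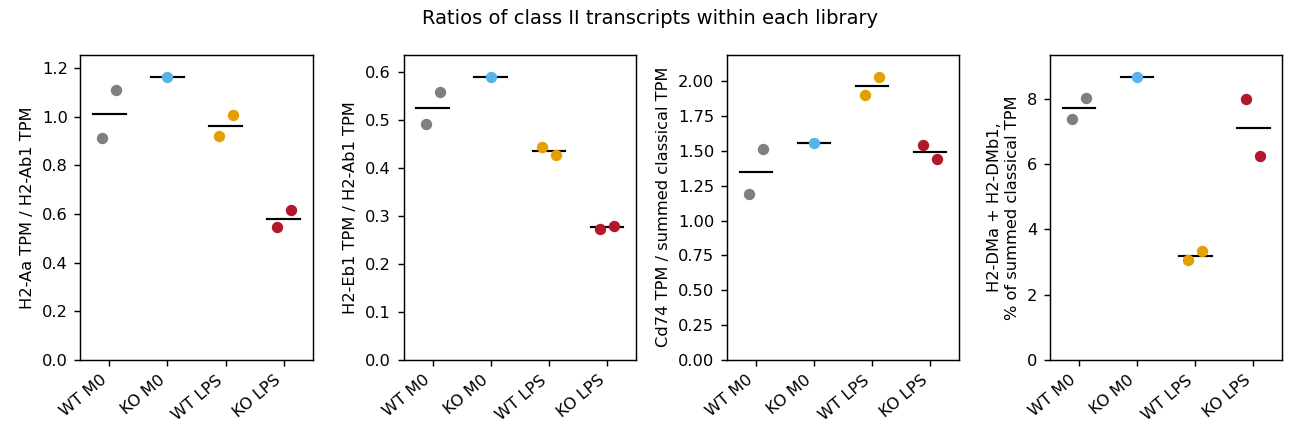
Ratios of class II transcripts within each of the 7 libraries: H2-Aa over H2-Ab1, H2-Eb1 over H2-Ab1, Cd74 over the summed classical chains, and H2-DMa plus H2-DMb1 in percent of them (vertical axes start at 0). Points are libraries and lines group means; the first pair of ratios is lowest in KO LPS, at 0.545 and 0.615 and at 0.273 and 0.280, and the DM percentage is lowest in WT LPS.

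Ciita and the classical transcripts, which it is known to drive, therefore did not keep the same order across groups. H2-DMb1 and H2-DMb2 had their lowest means in WT LPS, as Ciita did, while H2-DMa overlapped between the LPS groups. The summed classical TPM were 4900 and 4359 (WT M0), 4048 (KO M0), 2438 and 2143 (WT LPS) and 1339 and 1364 (KO LPS). WT LPS had the lowest Ciita and KO LPS the lowest classical sum. Ciita per 1000 TPM of the classical sum was 1.43 and 1.29 (WT M0), 1.86 (KO M0), 0.362 and 0.422 (WT LPS) and 2.05 and 1.89 (KO LPS). RNA levels after 6 hours do not give Ciita protein or the rate of transcription.

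**Figure D4:**
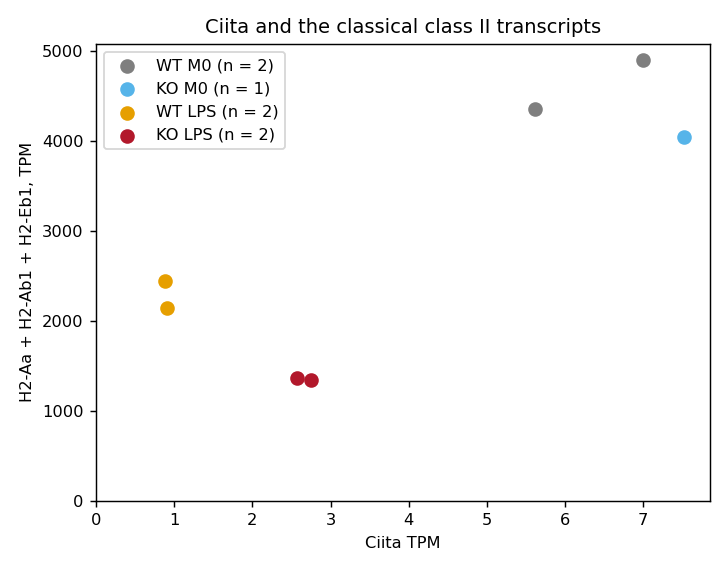
Summed TPM of H2-Aa, H2-Ab1 and H2-Eb1 (vertical axis) against Ciita TPM (horizontal axis), 1 point per library, coloured by group, both axes linear and starting at 0. The KO LPS libraries lie below and to the right of the WT LPS libraries, at 2.75 and 2.58 TPM of Ciita.

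Without LPS none of the 9 genes passed between genotypes, and 0 of 9 had an unadjusted p under 0.05 by limma, against 1.39% of all genes tested. Of all genes tested 1 passed (0.00901%), Tgm2. Log2 fold changes of KO M0 vs WT M0 ran from -0.66 (H2-DMb2) to 0.39 (H2-Oa), with a median of -0.10 against 0.06 for all genes tested. The 95% intervals were -0.50 to 0.30 for H2-Aa, -0.41 to 0.45 for Cd74 and -0.34 to 0.80 for Ciita. Differences within those intervals are not excluded, and KO M0 has 1 library.

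The difference between the LPS responses, knockout minus wild type, was tested as an interaction, and 0 of 9 genes passed where 1.37% of all genes tested did (0.847% higher and 0.523% lower). At an unadjusted p under 0.05 there were 5 of 9, against 10.5% of all genes tested. The 9 genes did not share a direction. Over the alternatives the value for H2-Eb1 ran from -1.05 to -0.75 and that for H2-DMb1 from 0.67 to 0.92. Cd74 (-1.18, SE 0.25, adjusted p 0.054) and H2-Aa (-1.02, SE 0.23, adjusted p 0.072) came closest, Cd74 passing when a mean of at least 5 TPM was asked (adjusted p 0.040). H2-DMb2 gave 1.82 (SE 0.68, adjusted p 0.33). It was 2.57 (adjusted p 0.040) leaving out the second WT LPS library, 1.079 (0.45) leaving out the first and 3.43 (0.54) with a pseudocount of 0.1, and its adjusted p reached 0.74 leaving out the first WT M0 library. H2-Ab1 gave -0.08 (SE 0.26) and Ciita 0.72 (SE 0.33, adjusted p 0.49). That LPS lowered H2-Aa, H2-Eb1 and Cd74 more in knockout cells is therefore not established by the test of the difference itself.

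Other class II genes were scarce. H2-Ob, the DO beta chain, was at 1.27 and 1.35 TPM (WT M0), 1.60 (KO M0), 2.10 and 2.13 (WT LPS) and 4.18 and 3.48 (KO LPS). It rose with LPS in knockout cells (0.89, SE 0.26, adjusted p 0.021, lost without KO LPS replicate 1 at 0.083), and did not pass in wild-type cells (0.43, adjusted p 0.13) or between genotypes under LPS (0.63, SE 0.21, adjusted p 0.12). H2-Eb2 stayed at 0.697 TPM or less and was not tested. H2-Ea, the I-E alpha chain, (as H2-Ea-ps) is listed at 0 in all 7 libraries, so the tables hold no alpha chain partner for H2-Eb1. The H2-b haplotype of common laboratory mice is known to lack a working copy of that gene.

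No factor of the X and Y boxes passed between genotypes under LPS. Of 8 such factors 0 passed in KO LPS vs WT LPS by limma and 0 had an unadjusted p under 0.05, with a median of -0.11. Of all genes tested 7.16% passed in that comparison and 20% had an unadjusted p under 0.05. Rfx5, a DNA-binding RFX subunit, came closest at 13.5 and 13.2 TPM in KO LPS against 10.8 and 10.9 in WT LPS (0.28, adjusted p 0.45). In WT LPS vs WT M0, 4 of the 8 fell and 0 rose, where 29.6% of all genes tested fell and 15% rose. Rfxap, another RFX subunit, fell from 27.1 and 28.4 to 8.02 and 9.69 TPM (-1.55, SE 0.19, adjusted p 9.3e-05), and Nfya, an NF-Y subunit, from 134 and 132 to 80.7 and 83.2 TPM (-0.70, SE 0.15, adjusted p 0.0031). The falls of Nfyc (-0.52) and Rfxank (-0.55) were lost with median-ratio scaling and without each of the WT libraries in turn.

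Of 15 genes known to act upstream of Ciita, 0 passed between genotypes under LPS by limma, beside 7.16% of all genes tested. Of these 15, 3 had an unadjusted p under 0.05, which is the 20% found over all genes tested. In WT LPS vs WT M0, 6 of the 15 rose and 5 fell, where 15% of all genes tested rose and 29.6% fell. Jak2, a kinase of the interferon gamma receptor, rose by 2.21 (SE 0.17), and Socs1, an inhibitor of that kinase signal, by 3.38 (SE 0.23). Il4ra, a receptor chain for interleukin 4, fell by 0.89 (SE 0.15). Between genotypes under LPS, Ifngr1, a receptor chain for interferon gamma, was at 85.1 and 93.2 TPM in KO LPS against 116 and 158 in WT LPS (-0.60, adjusted p 0.081). Socs1 was at 114 and 81.9 TPM against 69.6 and 48.8 (0.72, adjusted p 0.095), and Irf8 (-0.49, adjusted p 0.093) and Usf1 (0.34, adjusted p 0.26) did not pass either. Ifng itself was at 0.233 TPM or less in every library.

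Among endosomal processing enzymes, Ctsl and Ctss, proteases known for cutting the invariant chain, were lower in KO LPS. These were 2 of 10 enzymes called lower in KO LPS vs WT LPS, with 0 called higher and a median of -0.08, where 2.58% of all genes tested were called lower and 4.59% higher. Ctsl, cathepsin L, was at 769 and 783 TPM against 1591 and 1452 (-0.97, SE 0.15, adjusted p 0.0028), a call kept under all 15 alternatives. Ctss, cathepsin S, was at 3033 and 3115 TPM against 5219 and 5093 (-0.75, SE 0.15, adjusted p 0.016), a call lost without any 1 of the 4 LPS libraries and when low genes were not filtered (adjusted p up to 0.15). Ifi30, a reductase that opens disulfide bonds of antigens (0.58, adjusted p 0.12), and Lgmn, legumain (-0.33, adjusted p 0.27), did not pass.

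In wild-type cells with LPS, Ctsl and Ctss were not among the enzymes that passed. Of the 10 enzymes 5 fell and 2 rose in WT LPS vs WT M0, beside 29.6% and 15% of all genes tested. Lgmn fell by 1.53 (SE 0.15), Ifi30 by 1.66 (SE 0.19), Ctsb by 1.22 (SE 0.15) and Ctsd by 1.24 (SE 0.16). Ctsl gave -0.21 (adjusted p 0.27) and Ctss -0.21 (adjusted p 0.29). In KO LPS vs KO M0, 7 fell and 2 rose, beside 24.3% and 13.8% of all genes tested, with Ctsl (-1.15, SE 0.18) and Ctss (-1.03, SE 0.19) among those that fell. The interaction did not pass for Ctsl (-0.93, adjusted p 0.097) or Ctss (-0.81, adjusted p 0.19).

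Of 11 genes of class II ubiquitination and endosomal traffic, 2 were called lower and 0 higher in KO LPS vs WT LPS, with a median of -0.19, beside 2.58% and 4.59% of all genes tested. Cd63, an endosomal tetraspanin, was at 755 and 753 TPM against 1113 and 1316 (-0.68, adjusted p 0.024), and Tfeb, a transcription factor of lysosomal genes, at 14.4 and 11.8 against 21.4 and 22.3 (-0.70, adjusted p 0.037). Each call was lost without any 1 of the 4 LPS libraries, with adjusted p up to 0.26 and 0.24, and that of Tfeb also without either WT M0 library. Rab7 (-0.32, adjusted p 0.34) and Mif, a ligand of Cd74 (-0.40, adjusted p 0.37), did not pass. In WT LPS vs WT M0, 2 rose and 4 fell, beside 15% and 29.6% of all genes tested. March1, the ligase that tags surface class II for removal, rose from 14.3 and 20.3 to 174 and 197 TPM (3.37, SE 0.21, adjusted p 9.7e-07). It was at 21.3 TPM in KO M0 and 121 and 168 TPM in KO LPS, below WT LPS without passing (-0.38, adjusted p 0.37). Tfeb (-0.89) and Cd63 (-0.57) fell in wild-type cells with LPS, as did Cd44, a co-receptor of Cd74 (-0.70). The calls of Cd63 and Cd44 were lost with median-ratio scaling. That of Cd63 was also lost without the first WT M0 or the first WT LPS library, and that of Cd44 without either WT LPS library or without the second WT M0 library, where it was -0.36 (adjusted p 0.14).

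**Figure D5:**
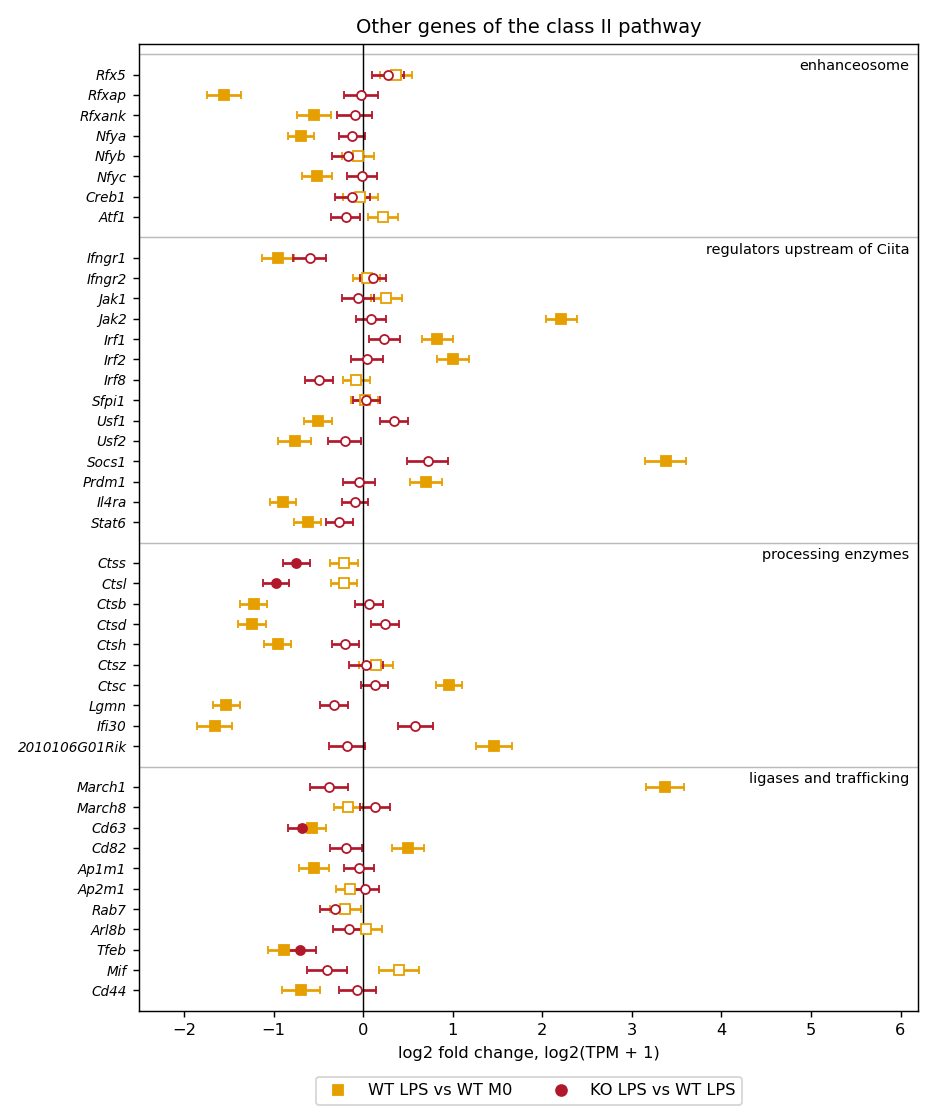
Log2 fold change on the log2(TPM + 1) scale (horizontal axis) of the other class II pathway genes reported here, in 4 groups, for WT LPS vs WT M0 (squares) and KO LPS vs WT LPS (circles). Bars are 1 SE either side and filled symbols passed an adjusted p of 0.05; between genotypes these are Ctss, Ctsl, Cd63 and Tfeb, all lower in KO LPS.

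Marker lists of macrophages and of other cell types were read beside these results. All 8 macrophage markers were present, with summed TPM of 47205 to 51310 in the untreated libraries and 38578 to 41756 with LPS. Most of each sum was Lyz2 (28492 to 42151 TPM), which did not pass in WT LPS vs WT M0 (-0.38, limma adjusted p 0.12). In that comparison 2 of the 8 rose and 2 fell, beside 15% and 29.6% of all genes tested. Between genotypes under LPS, 0 of 8 passed or had an unadjusted p under 0.05. Of all genes tested 7.16% passed in that comparison (4.59% higher and 2.58% lower), and 20% had an unadjusted p under 0.05. The 11 dendritic cell markers summed to 3.98 to 6.19 TPM untreated, 10.4 and 14.3 (WT LPS) and 18.1 and 21.6 (KO LPS). Most of the LPS sum was Ly75 (7.40 to 15.7 TPM), in the range of Ciita or above it. Of the 3 dendritic markers tested, 0 passed between genotypes under LPS, but 2 had an unadjusted p under 0.05 by limma, beside 20% of all genes tested. Ccr7 was at 3.02 and 2.33 TPM in KO LPS against 1.40 and 0.417 in WT LPS (0.99, adjusted p 0.073), and Batf3 at 1.46 and 1.24 TPM against 0.582 and a listed 0 (0.90, adjusted p 0.097). Both are descriptions: Ccr7 passed the filter only through its KO LPS levels and Batf3 only through its knockout libraries. With LPS, Ly75 rose in both genotypes. Ccr7 is listed at 0 in KO M0, a difference of 1.87 in log2 with LPS in knockout cells, again a description. Flt3, Zbtb46 and Clec9a were at 0.532 TPM or less in every library and Xcr1 at 1.37 or less. Of the 8 B cell markers, 4 are listed at 0 in all 7 libraries, Pax5, Ebf1 and Fcer2a among them, and the list summed to 6.31 to 7.90 TPM untreated and 0.966 to 1.76 with LPS. Most of the untreated sum was Cd22 (4.94 to 6.28 TPM), at 0.774 to 1.35 TPM with LPS. In log2 it was lower with LPS by 1.63 in wild-type cells and by 1.90 in knockout cells. This too is a description, since Cd22 passed the filter only through its untreated levels. T and NK cell markers summed to 12.03 to 15.3 TPM untreated and 1.21 to 1.98 with LPS. Most of that sum was Cd4, at 11.6 to 14.4 TPM untreated and 1.19 to 1.499 TPM with LPS. Cd3d, Cd3e, Cd3g, Cd8a, Nkg7, Ncr1 and Klrb1c were at 0.712 TPM or less in every library. Neutrophil markers summed to 5.01 to 8.40 TPM untreated, 208 and 333 (WT LPS) and 106 and 161 (KO LPS). Of the 2 tested, 1 was called lower in KO LPS than in WT LPS, beside 2.58% of all genes tested. That gene, S100a8, made up most of the sum with LPS, at 196 and 321 TPM (WT LPS) and 96.9 and 152 (KO LPS). S100a9, Mpo and Elane were at 0.845 TPM or less in every library. Stromal markers summed to 23.2 to 42.0 TPM untreated, 21.1 and 23.3 (WT LPS) and 30.1 and 25.3 (KO LPS). These similar sums hold opposite changes. Most of the untreated sum was Col1a1 (10.4 to 18.6 TPM) with Col1a2 (7.61 to 14.1 TPM). Most of the LPS sum was Pdgfrb, at 18.2 to 27.7 TPM with LPS and 1.81 to 2.29 TPM untreated. Of the 4 tested, 2 were called higher in KO LPS, beside 4.59% of all genes tested. Those were Col1a1, listed at 0 in WT LPS and at 1.18 and 1.56 TPM in KO LPS (adjusted p 0.0092), and Col1a2, listed at 0 and at 0.692 and 0.831 TPM (adjusted p 0.049). Pdgfrb (0.25, limma adjusted p 0.61) and Dcn (-0.76, adjusted p 0.33) did not pass. The part of these lists in the class II results was not tested.

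The genes whose levels followed class II most closely were ranked by Pearson's r of log2(TPM + 1) over the 7 libraries, among 4623 genes, as a description with no p, since the libraries form 4 groups and share their scaling. For the mean of H2-Aa, H2-Ab1, H2-Eb1 and Cd74 they were Solh, Atp6v0d2, Havcr2, Prodh and Bmf, with r of 0.996, 0.994, 0.991, 0.989 and 0.987. Atp6v0d2, a proton pump subunit, was at 61.5 and 67.3 TPM (WT M0), 75.0 (KO M0), 17.04 and 12.2 (WT LPS) and 2.57 and 3.00 (KO LPS). For Ciita they were Ctse, Nipsnap1, Sccpdh, Chchd6 and Kif13b, with r of 0.998, 0.997, 0.991, 0.991 and 0.991. Ctse, the endosomal protease cathepsin E, was at 3.96 and 3.39 TPM (WT M0), 4.33 (KO M0), 1.22 and 1.32 (WT LPS) and 2.24 and 2.21 (KO LPS), lowest in WT LPS as Ciita was. No gene stood in both groups of 5.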

How the data were processed

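The 7 RNA-seq libraries were grouped by their titles. The authors deposited TPM per gene for each library, scaled to a sum of 1000000. Reads were placed on mm10, per the submitters' processing notes. Aligner, quantification tool, annotation and strand use: not given in the sources used here. TPM are not counts, so no count model was used.

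The 4 group means were fitted to log2(TPM + 1) across the 7 libraries in R 4.3.3, using limma 3.58.1 (mean-variance trend, 3 residual degrees of freedom), for 11096 genes with a mean of at least 1 TPM. Calls used Benjamini-Hochberg adjusted p under 0.05 over all of them. The test was checked on simulated data.

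The 9 genes and the gene lists were chosen with earlier results of these data known. All 9 genes are named. From each list up to 4 genes with the smallest p in KO LPS vs WT LPS and in WT LPS vs WT M0 are named, with the 5 genes most like the classical chains with Cd74, and the 5 most like Ciita, among tested genes with a range of at least 1 in log2(TPM + 1), predicted or unnamed models, pseudogenes and antigen receptor segments left out. Ifng, H2-Ob, H2-Ea, H2-Eb2 and the cell type markers fall outside that rule, the markers named singly being chosen after their values were seen. List genes were matched by symbol or RefSeq synonym. Trac and Ly6g are not analysed here, and some genes of the lists enter the counts but are not reported here by name. Alternatives were other scalings, pseudocount, filters, threshold, a replicate block and left-out libraries. Promoter sequences and coordinates are RefSeq's, GRCm38.p6. Figures were drawn with matplotlib 3.10.9.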

Additional observations from a re-analysis of the deposited data

How the results depend on the processing

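Among repeats of single-gene results, 892 kept direction and side of the threshold, 65 lost a call, 4 gained one and 8 changed sign. The number of the 9 genes called in KO LPS vs WT LPS was 4, and 2 with no filter on low values. In the interaction it was 0, and 1 with a minimum mean of 5 TPM and without WT LPS replicate 2. Over left-out libraries it ran from 3 to 4, from 8 to 9 in WT LPS vs WT M0, and stayed at 8 in KO LPS vs KO M0 and 0 in KO M0 vs WT M0. In both LPS comparisons these counts include H2-Oa, which the filter favoured.

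Calls over all genes in KO LPS vs WT LPS (795) were 307 with no filter, 362 at an adjusted p under 0.01 and 385 to 655 with a library left out. In KO LPS vs KO M0 (4233) they were 2681 at 0.01. In KO M0 vs WT M0 (1) they were 2 with a pseudocount of 0.1, 20 with no filter, 40 with the compared groups alone and 1 to 6 with a library left out. In the interaction (152) they were 92 with a pseudocount of 0.1, 10 with no filter, 28 at 0.01 and 16 to 139 with a library left out. Scaling moved the median gene by about 0.2 log2 in both LPS comparisons: WT LPS vs WT M0 had 1665 calls up and 3284 down (median-ratio scaling 2490 and 2272), and KO LPS vs KO M0 1533 and 2700 (2114 and 1838). The causes were not tested.

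Of single-gene results that had not passed, 8 turned direction, the cause not tested. H2-DMa in KO LPS vs WT LPS ran from -0.44 to 0.43 with a library left out (0.07 leaving out the first WT LPS library), and its interaction from -0.67 to 0.20. Cd74 in KO M0 vs WT M0 was -0.027 with median-ratio scaling and ran from -0.066 to 0.11 with a library left out. The interaction of H2-Ab1 ran from -0.24 to 0.082 (0.04 leaving out the first WT LPS library), and that of H2-Oa was -0.45 with a pseudocount of 0.1.

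Replicate numbers are not said to mark a shared animal or day, and KO M0 has none. With the replicate number as a block and without KO M0, 5 of the 9 genes were called in KO LPS vs WT LPS, H2-DMb1 being added, among 1115 genes in all, and 9 in WT LPS vs WT M0. Deviations of same-numbered libraries correlated at 0.18 between WT LPS and KO LPS, 0.08 between WT M0 and WT LPS and 0.30 between WT M0 and KO LPS. No paired analysis was possible for the comparisons with KO M0 because it has no number.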
